A study of Mus musculus with 12 samples.

Results

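The genes for the proteins of the cytosolic ribosome were followed in mouse hippocampus after a single episode of restraint stress. Members were chosen by symbol alone, as Rpl or Rps followed by a digit, Rplp followed by a digit, or Rpsa, without the Rps6k kinases and without pseudogene symbols that contain -ps. The rule itself uses no measured value. The rule found 87 of the 23953 genes in the RNA tables. They comprised 43 proteins of the large subunit, 31 of the small subunit, 3 of the stalk, and 10 paralogs or lookalikes. One of the lookalikes, Rps19bp1, encodes a protein that binds Rps19 and is not itself part of the ribosome. A total of 81 members had a mean of at least 1 FPKM (fragments for each kilobase of a transcript, relative to all fragments of its table), the minimum used below for differences.

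The study asked how 5-hydroxymethylcytosine (5hmC), a base made by oxidation of methylated cytosine and common in the DNA of nerve cells, is distributed in the hippocampus soon after stress. All mice were C57BL/6 males. Their age was postnatal day 28 in the sample tags and 7 weeks in the protocol. The 6 stressed mice were restrained for 30 min, starting 2 h after lights on, and spent 1 h alone in a clean cage before tissue was taken under brief isoflurane. The 5 control mice were not restrained, were taken from the cage when the restraint of the others began, and received the same anaesthesia. Handling, single housing and the time of tissue collection therefore differed together with restraint and cannot be told apart from it. Pools of at most 2 mice (1 pool held 1 mouse) gave 3 stress and 3 control 5hmC libraries and as many RNA libraries.

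Each ribosome is built from ribosomal RNA and one copy of most of these proteins, the stalk proteins being the main exception. A small subunit reads the mRNA, a large subunit joins the amino acids, and the stalk of the large subunit, made of Rplp0, Rplp1 and Rplp2, recruits elongation factors. Most of these mRNAs begin with a C followed by a run of pyrimidines, the terminal oligopyrimidine (TOP) tract, through which the mTOR pathway adjusts their translation with little need for a change in mRNA level. Levels of mRNA in whole tissue do not show how much of each mRNA was being translated.

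The 5hmC lists held 15195 to 31654 peaks per library, and the stress lists held both the fewest and the most. For 5hmC the labels state 25000000 to 35000000 uniquely mapped reads per library. RNA was deposited as 1 table per group, without counts, so RNA values have no replicate error, the depth behind them is unknown, and no test was possible. Marker genes of other cells differed between the RNA tables. The summed FPKM of 15 choroid plexus markers was 324 in controls and 103 after stress, with 9 of the 9 markers above the minimum lower. For 12 oligodendrocyte markers the sum was 1539 and 1345, for 12 astrocyte markers 624 and 710, for 12 microglial markers 87.8 and 99.6, and for 12 neuronal markers 1679 and 1855, in that order. None of these markers was listed at 0, and the neuronal sums were the highest of these lists. For 12 markers of hippocampal fields the sums were 120 and 131, for endothelium and mural cells 57.6 and 63.5, and for blood 295 and 285. The part of this difference in tissue composition in the values below was not tested. In whole tissue, a lower share of the cells that use a gene and less of its RNA in each cell cannot be told apart.

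The start sites are shown first because the TOP tract described above, where present, lies there. RefSeq promoter windows (GRCm38.p6, 250 bases before to 50 after each start) were found for 66 of the 87 members, 78 windows in all. A TOP tract, taken as a C followed by at least 4 pyrimidines that begins within 5 bases of the start on the gene's strand, was present in 32 of the 78 windows (41.0%) and in 18.3% of all 32851 windows. These 32 windows belonged to 30 members. One of the 32 is that of Rps27rt, which RefSeq places on chromosome 9 and the RNA tables on chromosome 3, so it may not be the start of the gene measured. In the lines that follow, 30 bases before and 15 after the start are printed 5′ to 3′ on the gene's strand, and capitals mark the tract. Rps18, Rpl15, Rpl35, Rps6 and Rps10 have a tract that begins at the first transcribed base, Rps24 has one that begins 1 base before it, and Rps3, the member with the highest mean RNA level, has none by this definition.
Rps18: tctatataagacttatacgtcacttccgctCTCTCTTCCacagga
Rpl15: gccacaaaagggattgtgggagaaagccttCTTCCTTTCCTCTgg
Rpl35: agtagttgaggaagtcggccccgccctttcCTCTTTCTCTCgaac
Rps6: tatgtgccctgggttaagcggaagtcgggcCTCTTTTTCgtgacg
Rps10: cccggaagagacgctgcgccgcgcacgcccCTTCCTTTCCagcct
Rps24: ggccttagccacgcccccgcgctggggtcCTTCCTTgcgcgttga
Rps3: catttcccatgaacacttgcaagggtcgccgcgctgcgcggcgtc

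In GRCm38.p6 these windows lie at chr17:33955651-33955695 (Rps18, minus strand), chr14:18270972-18271016 (Rpl15, minus), chr2:39005117-39005161 (Rpl35, minus), chr4:86857353-86857397 (Rps6, minus), chr17:27635230-27635274 (Rps10, minus), chr14:24490648-24490692 (Rps24, plus) and chr7:99483695-99483739 (Rps3, minus). The tract is 9 bases long in Rps18 and Rps6, 13 in Rpl15, 11 in Rpl35, 10 in Rps10 and 7 in Rps24. A start annotated a few bases away from the one in use would hide a tract, so its absence says only that these letters are not at the annotated start.

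Other letters were also counted over the whole 300 bases, on both strands. GGGCGG, the core of SP1 sites, was in 60.3% of member windows and 35.7% of all windows. CTTTCC, a pyrimidine stretch that on the gene's strand can lie inside a TOP tract, was in 51.3% and 26.6%. On the gene's strand alone it was in 38.5% and 14.1%. CCGGAAG, the core of ETS family sites such as those of GABP, was in 34.6% and 8.86%, again on both strands. AAGATGGC, a YY1 motif, was in 10.3% and 2.75%. Motifs that did not share this pattern were TATAAA, in 8.97% of member windows and 13.6% of all, and TTCTTTT, in 7.69% and 9.83%. Member windows were rich in CG pairs, the usual substrate of cytosine methylation, with a median of 21 per window and 7 over all windows. Matches are descriptions of the letters and were not tied to binding.

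The genes themselves were short and spread over the genome. Bodies measured 852 to 11772 bp with a median of 2969 bp, compared with a median of 14272 bp over all genes, and 19 of 21 chromosomes held at least 1 member. Chromosome 7 held 14. The longest transcripts had a median of 710 nt. For 17 members (19.5%) the longest transcript was under 500 nt, compared with 1.23% of the genes above the expression minimum. Introns of these genes are known hosts of small nucleolar RNAs, which guide chemical marks on ribosomal RNA. A snoRNA gene lay on the same strand within the body of 22 of 87 members (25.3%), compared with 0.357% of 22693 genes, and 31 snoRNA genes were hosted in all. Rpl13a held 4 of them (Snord32a, Snord33, Snord34 and Snord35a) and Rpl23a held 3 (Snord42a, Snord42b and Snord4a).

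RNA levels of the members were high and uneven. Together they summed to 2419 FPKM in the control table and 2467 in the stress table, or 1.71% and 1.62% of the table total. A mean of at least 50 FPKM was reached by 18 members, 42 lay between 10 and 50, 21 between 1 and 10, and 6 below 1. The median member stood at 20.2 FPKM in controls and 21.8 after stress, compared with 5.23 and 5.60 over all genes above the minimum and 5.82 and 6.06 over 77 mitochondrial ribosomal protein genes. FPKM is a value per length, but for transcripts under 500 nt it depends strongly on how the effective length is estimated. Each FPKM was deposited with an interval. In controls the median ratio of FPKM to its midpoint was 1.24 for member transcripts of members of 500 nt or more. For all genes above the minimum it was 1.01. Levels of members beside those of other genes are therefore uncertain. Where 2 values are given for a gene, that of the control table comes first.

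**Figure D1:**
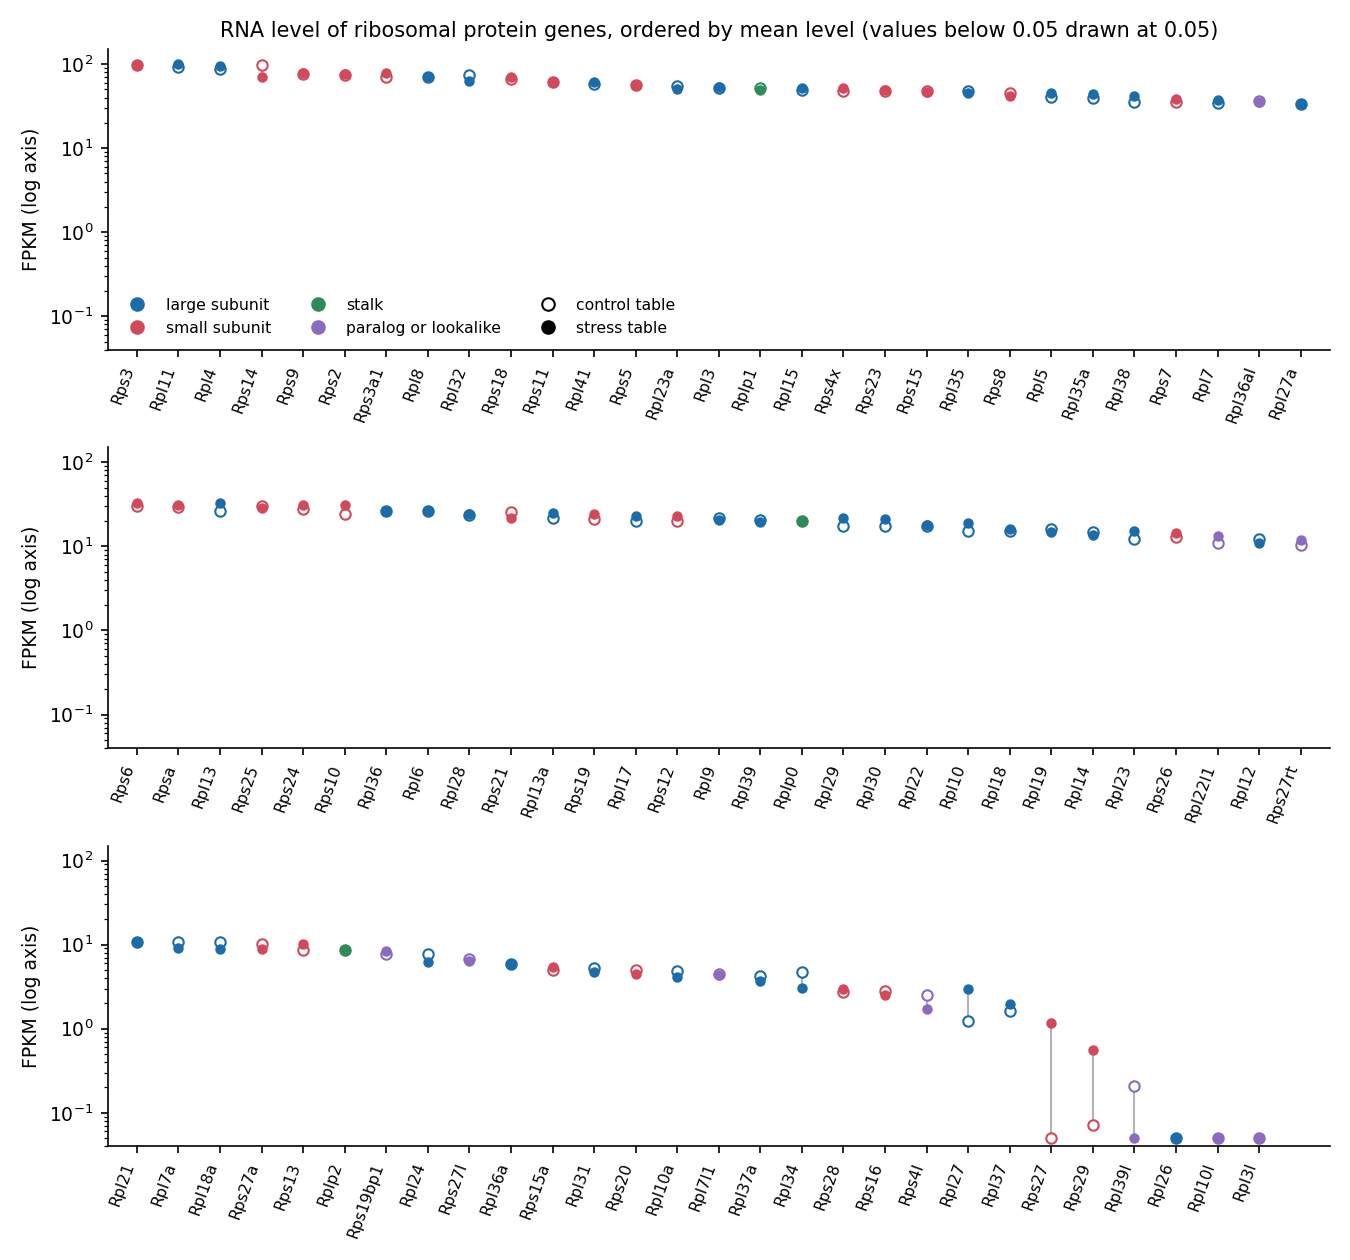
RNA level (FPKM, log axis) of the members in the control table (open circles) and the stress table (filled circles), ordered by mean level and coloured by group. Most pairs of circles lie on each other, and the wide gaps are among the 6 members below 1 FPKM and in Rpl27.

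By the mean of both tables the most abundant member was Rps3, a protein at the mRNA entry of the small subunit that also acts in DNA repair, at 98.2 FPKM in controls and 97.0 after stress. Rpl11, which can bind and inhibit Mdm2 when ribosome assembly is disturbed, stood at 92.1 and 99.7 FPKM, the highest FPKM after stress. Rpl4, which lines the exit tunnel of the growing peptide, stood at 86.2 and 93.8. These were followed by 3 proteins of the small subunit. Rps14 was at 96.4 FPKM in controls and 70.9 after stress, Rps9 at 76.3 and 77.9, and Rps2 at 74.4 and 76.8. With no replicates, the order among neighbours of like level cannot be separated from error. The order also depends on which deposited value is used. After stress the interval of Rpl11 was 61.9 to 67.4, below those of Rps3 (84.8 to 88.7) and Rpl4 (78.3 to 82.5).

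At the other end, 3 proteins that every ribosome needs were listed near 0. Rpl26, of the large subunit, was listed at 7.4e-05 FPKM in controls and 7.2e-05 after stress. Its body overlaps another gene, Gm15772, so reads of these could be shared. Rps27 was at 0.0202 and 1.16 FPKM, and Rps29, the shortest of the 3, at 0.0706 and 0.561. Such values for genes that dividing and resting cells alike depend on describe the deposited estimates and cannot be read as absent mRNA. For Rps27 the tables offer a second row: Rps27rt was placed at the same locus (chr3:90016589-90017569 in mm9, inside the Rps27 body that ends at 90017570) and stood at 10.5 and 11.8 FPKM. RefSeq places Rps27rt on chromosome 9 in GRCm38.p6, so what its row measures is uncertain. Reads of the pair cannot be told apart, and their sum was 10.6 FPKM in controls and 13.0 after stress.

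Most paralogs stood lower than their parents. Rpl10l and Rpl3l, relatives of Rpl10 and Rpl3 known from testis and muscle, were listed at 0 in both tables, while Rpl10 was at 15.3 and 18.9 FPKM and Rpl3 at 51.3 and 52.8. Rpl39l was at 0.210 FPKM in the control, listed at 0 in the stress table, and its parent Rpl39 stood at 20.5 and 19.7. An exception was Rpl36al, at 36.8 and 35.3 FPKM, above Rpl36a at 5.83 and 5.86. Close copies can share reads, so levels within such a pair are uncertain. Rpl22l1, which can take the place of Rpl22, stood at 11.0 and 13.2 FPKM beside 17.4 and 18.0 for Rpl22. Rps4l, a gene with 1 exon, stood at 2.51 and 1.73 FPKM beside 48.0 and 52.3 for Rps4x. Rps27l was at 6.66 and 6.45 FPKM, above the row of Rps27 and below the sum of the Rps27 locus, Rpl7l1 at 4.43 and 4.32 beside 34.6 and 37.7 for Rpl7, and Rps19bp1 at 7.65 and 8.28.

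Between the stress and control tables the members hardly differed as a group. Differences are log2((stress FPKM + 1)/(control FPKM + 1)), a scale that understates differences of low genes. The median over the 81 members was 0.02, with the middle 50% between -0.09 and 0.13, and the median over all 11071 genes above the minimum was 0.08. Relative to 0, 48 members were higher and 33 of 81 lower in the stress table, beside 30.6% of all genes lower. Relative to the median of all genes the split turned, with 33 above and 48 below. Which way the group leaned therefore depends on whether that common shift is removed, and the members' median became -0.06 once it was. With no minimum level the median of all 23953 genes was 0.00, and 35 of the 87 members lay below it.

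Only 5 members were at least 25% higher or at least 20% lower after stress on this scale, the same ratio in either direction. Of the 81, 2 (2.47%) were that much higher, against 7.71% of all genes, and 3 (3.70%) were that much lower, against 3.52% of all genes. At 1.5-fold there was 1 member higher and none lower, beside 1.18% and 0.894% of all genes. Members lie higher in level than most genes. At 10 FPKM or more, 1 of 60 was at least 25% higher and 1 at least 20% lower, beside 138 and 46 of 3305 genes. From 1 to below 10 FPKM these were 1 and 2 of 21, beside 716 and 344 of 7766 genes. The members' medians were 0.05 and -0.10 in these level classes, beside 0.09 and 0.07 for all genes. Against the 30.6% of all genes below 0, the large subunit had 25 members above 0 and 17 below, with a median of 0.02. The small subunit had 18 and 11, with a median of 0.06. The medians of the subunits differed by less than the spread of the members within either.

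**Figure D2:**
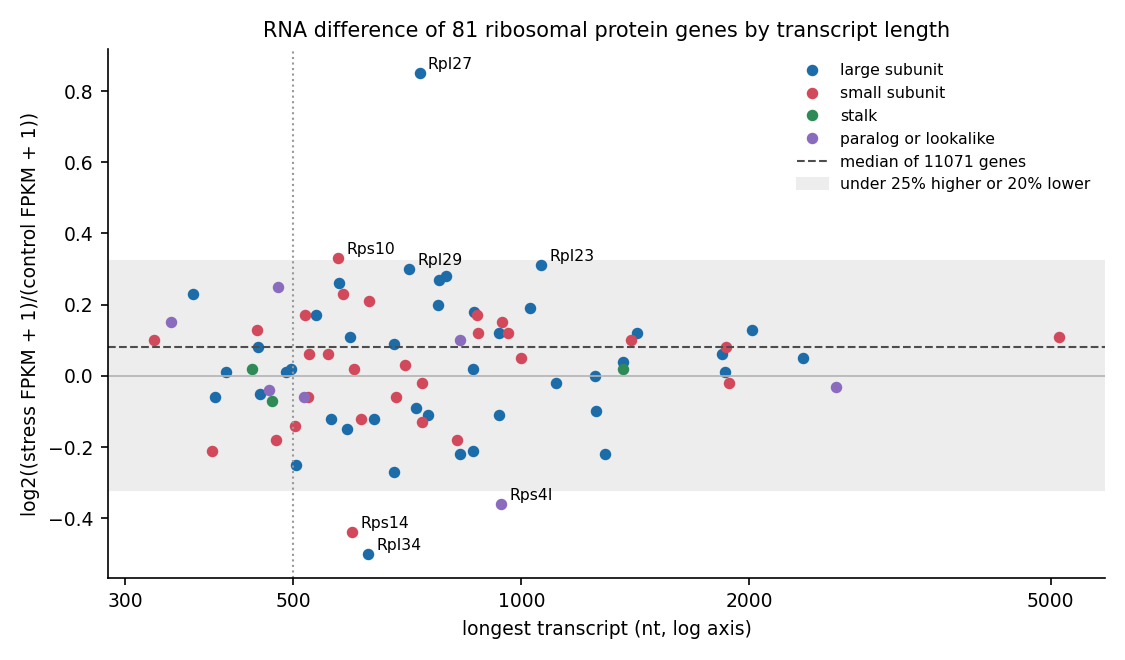
Difference between the RNA tables, log2((stress FPKM + 1)/(control FPKM + 1)), against the longest transcript (nt, log axis; dotted line at 500 nt) for 81 members coloured by group; the dashed line is the median of 11071 genes (0.08) and the grey band holds values under 25% higher and under 20% lower. Members on both sides of 500 nt scatter around 0, and Rpl27, Rps10, Rpl34, Rps14 and Rps4l lie outside the band.

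The largest difference was that of Rpl27, a large subunit protein. Its level was 1.22 FPKM in controls and 2.99 after stress, a difference of 0.85 on the log2(FPKM + 1) scale, and both values are near the minimum. Rps10, a protein of the head of the small subunit whose start site is printed above, was at 24.5 and 31.1 FPKM, a difference of 0.33, which is just past 25% higher. In the other direction, Rps14, a protein of the small subunit platform, differed by -0.44, and it was the only member of at least 10 FPKM that was at least 20% lower. Rpl34 was at 4.71 and 3.04 FPKM (-0.50), and Rps4l differed by -0.36. Rpl34 overlaps the pseudogene symbol Rpl34-ps1 and Rps4l overlaps Tmtc1 in the tables, so reads of these 2 could be shared.

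The members next in order stayed inside these limits. On the side of higher values were Rpl23, another protein that can bind Mdm2, at 12.2 FPKM in controls and 15.4 after stress (0.31), Rpl29 at 17.6 and 21.9 (0.30), Rpl10, which joins the large subunit late in its assembly, with 0.28, and Rpl13 at 26.7 and 32.5 (0.27). On the side of lower values were Rpl24, part of a bridge between the subunits, at 7.76 and 6.26 (-0.27), and Rpl32 at 74.4 and 62.6 (-0.25). Rps6, the target of the S6 kinases below mTOR, was at 30.2 FPKM in controls and 32.5 after stress. Rpsa, which is also a laminin receptor, was at 29.4 and 31.3. The stalk was level in both tables: Rplp0 stood at 19.8 and 20.2 FPKM, Rplp1 at 51.9 and 49.4 and Rplp2 at 8.60 and 8.70.

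Transcript length did not set the members apart. The 16 members under 500 nt above the minimum had a median difference of 0.01, a range of -0.21 to 0.25, and none past these limits. The 65 longer ones had a median of 0.04. Over all genes the class under 500 nt was far wider: of 136 genes, 36 were at least 25% higher and 25 at least 20% lower. Among the short members the highest differences were those of Rpl22l1 (0.25), Rpl38 (0.23), Rps27rt (0.15), Rps26 (0.13), Rps28 (0.10) and Rpl41 (0.08). On the side of lower values were Rps21 (-0.21), Rplp1 (-0.07), Rpl39 (-0.06), Rpl35 (-0.05) and Rps27l (-0.04). The listed values of the Rpl38 isoforms did not move alike. The isoform of 285 nt was at 2.52 FPKM in controls and 12.6 after stress, that of 369 nt at 26.4 and 22.6, and that of 352 nt at 6.67 and 6.72. These isoforms overlap and their reads can be shared, so how the level is divided among them is uncertain.

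The genes around the ribosome were counted from lists of related function. Mitochondrial ribosomal proteins had values close to the members, with a median of 0.03, 4 of 76 at least 25% higher and 5 at least 20% lower, beside 7.71% and 3.52% of all genes. Of ribosomal proteins with other symbols, Fau was at 12.1 and 10.9 FPKM and Gnb2l1 (Rack1) at 46.5 and 47.5. Of 24 other genes with TOP mRNAs, such as elongation factors, none passed either limit, and their median was 0.09. Their ends were Eif3k (0.23) and Nap1l1 (0.16) above, and Eif4a2 (-0.17) and Eef1d (-0.07) below.

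Initiation and elongation factors had a median of 0.08 with 3 of 40 at least 25% higher and none at least 20% lower (7.71% and 3.52% of all genes). The highest were Eif2b1, of the exchange factor that recharges eIF2, at 1.36 and 2.25 FPKM, and Eif3m at 6.97 and 9.45, while Eef1e1 (-0.23) and Eif6 (-0.20) were lowest. Ribosome biogenesis genes had a median of 0.11, with 10 of 79 past the upper limit and none past the lower, beside 7.71% and 3.52% of all genes. One of the 10, Gnl3l, was listed at 0 in controls and at 25.4 FPKM in the stress table, so it has no fold, and the next was Imp4 at 1.83 and 3.20. The lowest were Ddx52 (-0.32) and Riok3 (-0.23).

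In the mTOR list 4 of 33 genes were past the upper limit and none past the lower, beside 7.71% and 3.52% of all genes, with a median of 0.10. Ddit4, an inhibitor of mTOR complex 1 that glucocorticoids induce, was at 17.4 FPKM in controls and 34.2 after stress, a difference of 0.94. Rps6kb2, an S6 kinase, was at 0.999 and 2.18, both near the minimum. Rheb, the activator of mTOR complex 1, was at 19.0 and 15.5 (-0.28), and Tbc1d7 at 3.53 and 2.74 (-0.27). Rps6, whose phosphorylation is a common readout of that pathway, differed by 0.10 in RNA.

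5hmC peaks in the member bodies were few and varied between libraries of one group. Peaks overlapped the body of 4, 11 and 10 members in the stress libraries 1 to 3 and of 8, 9 and 4 members in the control libraries 1 to 3. The groups overlapped, with means of 8.33 ± 3.79 and 7.00 ± 2.65 (SD, n = 3 each; exact two-sided permutation test, p = 0.6, adjusted p = 0.8). With 3 libraries against 3 the smallest p this test can give is 0.1, so no comparison of this kind could pass 0.05. The 4 comparisons of this family were adjusted together by Benjamini-Hochberg.

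The length of the bodies under peaks gave the same picture. It was 1.18%, 3.76% and 2.46% in the stress and 2.26%, 2.57% and 1.57% in the control libraries, so that stress libraries were both the lowest and the highest (means 2.47% ± 1.29 and 2.13% ± 0.511, SD, n = 3 each; exact permutation p = 0.8, adjusted p = 0.8). Lists differ in length, so this share was also divided by the share of all gene bodies under peaks in the same library. The ratio was 1.10, 1.76 and 1.01 in the stress and 2.13, 1.37 and 1.53 in the control libraries (means 1.29 ± 0.406 and 1.67 ± 0.400, SD, n = 3 each; exact permutation p = 0.3, adjusted p = 0.6). Within 1 kb of member start sites, 0.506%, 0.806% and 1.38% lay under peaks in the stress and 0.327%, 0.691% and 0.332% in the control libraries (means 0.896% ± 0.442 and 0.450% ± 0.209, SD, n = 3 each; exact permutation p = 0.2, adjusted p = 0.6). None of these measures separated the groups.

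**Figure D3:**
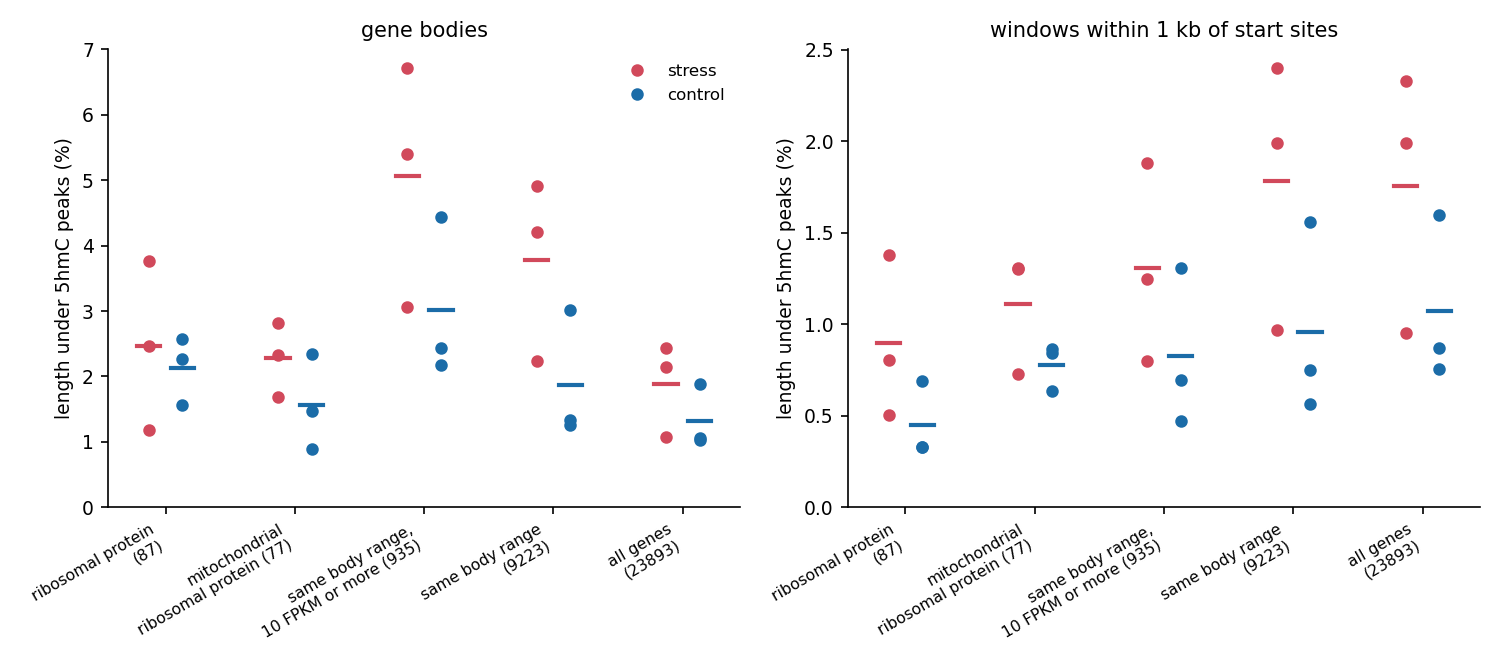
Share of length under 5hmC peaks (%) in gene bodies (left) and within 1 kb of start sites (right) for the members and 4 sets of other genes; each point is 1 library and bars are group means. Member values overlap between stress and control in both panels, and member start sites lie below those of the other genes of the same body range.

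Within 1 kb of start sites, peaks were sparser in members than in other genes of the same body range in 6 of 6 libraries. Start coverage was 0.389 to 1.05 times that of mitochondrial ribosomal protein genes, and lower in 5 of 6 libraries. Relative to 935 other genes with bodies in the same range and at least 10 FPKM, coverage within 1 kb of the start was 0.471 to 0.734 times as high, body coverage 0.367 to 0.924 times and the share of genes with a peak 0.299 to 0.646 times, lower in 6 of 6 libraries for each measure. Body coverage was not lower against every set: it was 0.501 to 1.68 times that of the 9223 genes in the same body range at any level, 0.701 to 1.76 times that of mitochondrial ribosomal protein genes, and 1.01 to 2.13 times that of all genes. The 935 genes had longer bodies, with a median of 5904 bp. Among genes of 2 to 5 kb at 10 FPKM or more (40 members and 302 others, a narrowing chosen after seeing the data), body coverage was lower for members in 5 of 6 libraries, 0.295 to 1.33 times. There the start windows of members held none under peaks in the 3 control libraries and 1.11%, 1.32% and 2.11% in the stress libraries, and in all 3 of these they stood above the other genes. The lower value at start sites thus holds for the wider range and not for this narrower one. No test was made of these ratios, since the libraries share their genes.

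Along the gene, peaks were scarcest just downstream of the start, in members as in other genes. Between the start and 500 bp downstream, 0.0590% of the length lay under peaks on average over the 6 libraries for members and 0.411% for the 935 other genes. For members, 2 libraries had any there. Mitochondrial ribosomal protein genes had none in any library from 500 bp before to 500 bp after the start, a wider gap. In the 500 bp before the start members were above the 935 other genes, at 1.20% and 0.747%. Between 500 and 1000 bp the values were 0.195% and 1.24%. Coverage then climbed in both sets, to 5.94% for members between 1500 and 2000 bp and to 5.62% for the other genes. Past that the members' values were lower, at 4.37% and then 3.20% in the next bins compared with 6.35% and 6.00%. Many member bodies end before 3000 bp, so these bins hold sequence beyond the gene. In single bins the groups could stand apart. From 1000 to 500 bp before the start, members had 1.14%, 2.01% and 2.48% in the stress libraries. In the control libraries they had 0.0552%, 0.292% and 0.276%. Stress libraries were also all above control libraries for members in each bin from 2000 to 1000 bp before the start. Downstream this held from 1000 to 1500 bp and from 4000 to 5000 bp. In the remaining member bins the groups overlapped, also in the 500 bp before the start. For the 935 other genes the groups overlapped in all of these bins. These bins were picked after seeing the values, and no bin was tested.

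**Figure D4:**
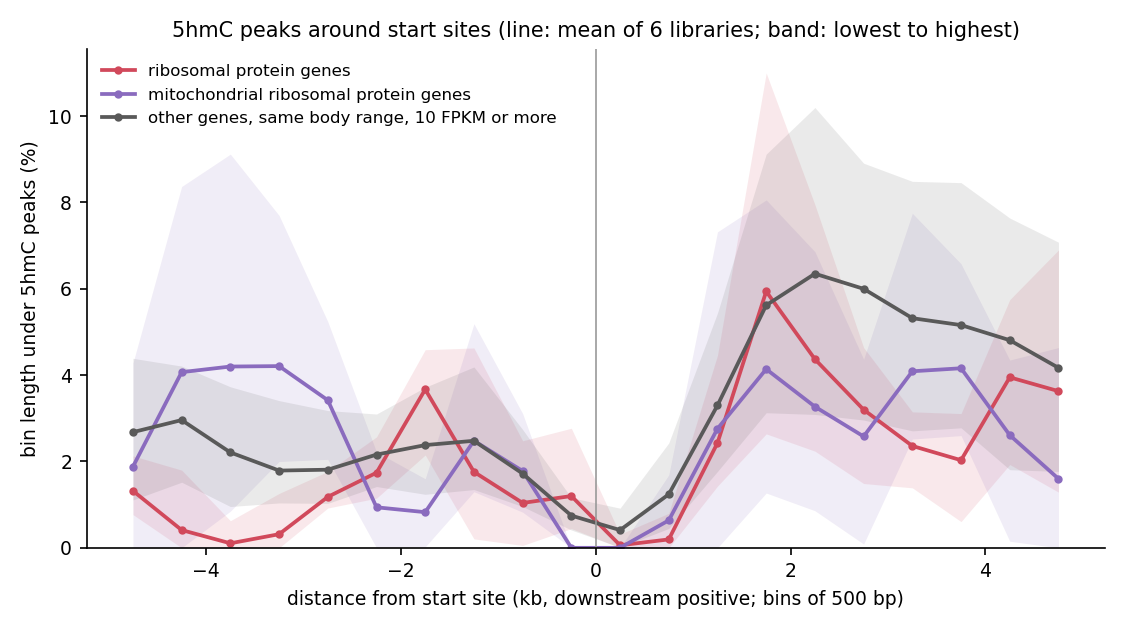
Share of each 500 bp bin under 5hmC peaks (%) against distance from the start site (kb, downstream positive) for 87 members, 77 mitochondrial ribosomal protein genes and 935 other genes of the same body range at 10 FPKM or more; lines are means of 6 libraries and bands run from the lowest to the highest library. The members drop to 0.0590% just after the start and reach 5.94% between 1.5 and 2 kb.

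Most members with a peak had it in a single library. In all, 27 of 87 members (31.0%) had a peak in at least 1 library, compared with 30.3% of 9223 other genes in the same body range and 46.3% of those at 10 FPKM or more. Of the 27, 17 had one in a single library, 5 in 2, Rpl31 and Rps7 in 3, Rpl8 and Rps3a1 in 4, Rps25 in 5, and none in all 6. When the peaks of the 6 lists were merged where they overlapped by at least 1 bp, member bodies held 29 regions. Of these, 19 (65.5%) came from a single library, as did 56.9% of the 74450 regions in the genome. Regions in 2 libraries made up 10.3% of member regions and 21.2% of all. Those in 4 made up 6.90% and 6.08%, those in 5 made up 6.90% and 3.26%, and those in 6 made up 0% and 1.63%. With 29 member regions these shares rest on few counts.

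**Figure D5:**
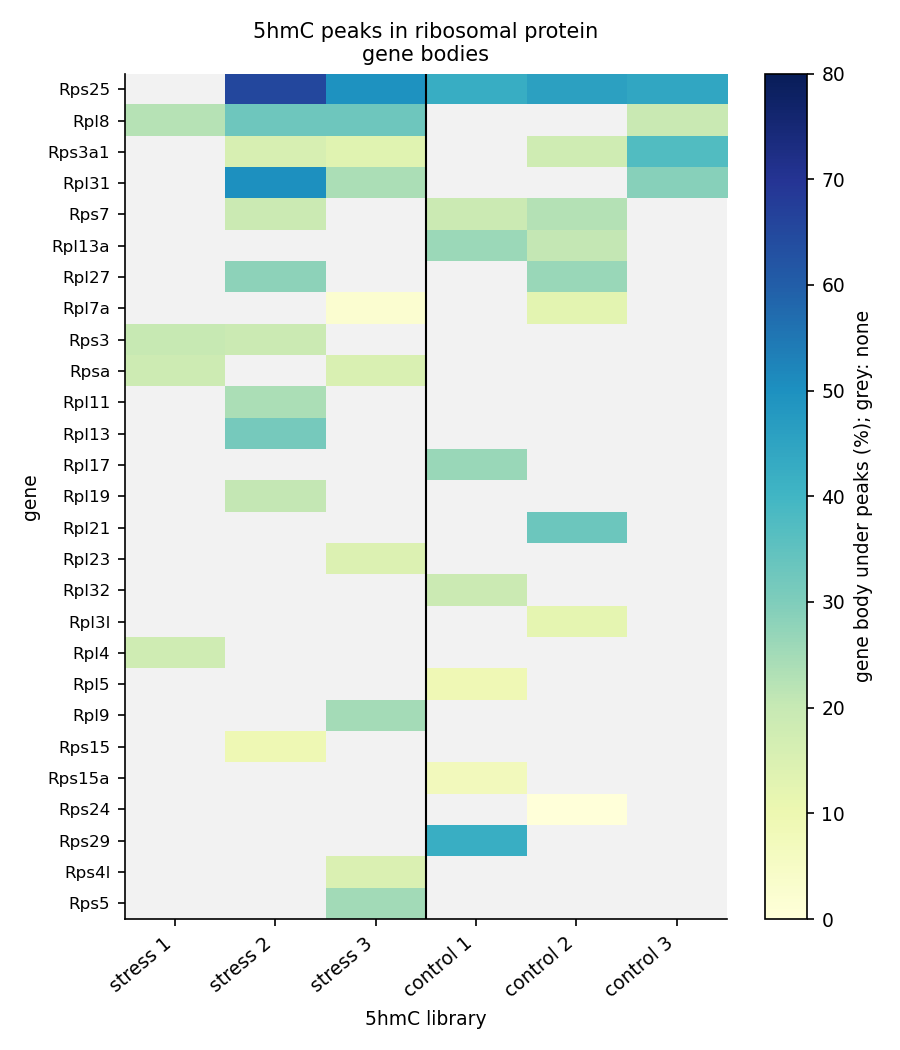
Share of the gene body under 5hmC peaks (%, colour; grey is none) for the 27 members with a peak in any library, in 3 stress and 3 control libraries. Rps25 has peaks in 5 libraries, and most other genes have them in 1.

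Rps25, a small subunit protein needed for translation from some internal ribosome entry sites, had peaks in its body in the most libraries. Its region (chr9:44216449-44218894, mm9) covers most of the body, centred 1874 bp downstream of the start, and also overlaps Ccdc84. It was absent in stress library 1 and covered 65.3% and 49.6% of the body in the other two stress libraries, and 42.2%, 45.9% and 44.2% in the control libraries. Neither group was higher throughout. Its RNA was at 30.2 FPKM in controls and 28.9 after stress.

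Rpl8, which reaches toward the catalytic centre of the large subunit, was the only member whose body coverage was higher in every stress than in every control library, as 3.95% of all genes were. The region (chr15:76736015-76737373, mm9) lies at the 3′ end of the gene, extends past it, and covered 22.3%, 32.6% and 32.7% of the body in the stress libraries. In the control libraries it was absent, absent and 19.6%. Its RNA was 70.2 FPKM in controls and 70.9 after stress. No member was lower in every stress library, as 0.548% of all genes were.

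Rps3a1, a small subunit protein, had a region at its 3′ end (chr3:85940982-85942714, mm9) in 2 stress and 2 control libraries, and a second one in control library 3. Body coverage was 0%, 15.7% and 13.4% in the stress and 0%, 18.0% and 37.4% in the control libraries. Rpl31 (chr1:39426504-39428534, mm9), whose body overlaps Tbc1d8, had 50.0% and 23.8% in the stress libraries 2 and 3 and 28.8% in control library 3. Rps7, another small subunit protein that binds Mdm2, had an intronic region (chr12:29317054-29318215, mm9) with 18.8% in stress library 2 and 19.0% and 22.8% in control libraries 1 and 2. These genes overlapped between the groups.

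The 5 members with peaks in 2 libraries split between the groups. Rpsa had 18.4% and 15.3% in stress libraries 1 and 3, and Rps3 19.7% and 18.9% in stress libraries 1 and 2, the latter from separate regions. Rpl13a, host of 4 snoRNAs, had 26.0% and 20.4% in control libraries 1 and 2. Rpl27 had 28.1% in stress library 2 and 26.3% in control library 2, so its body did not separate the groups although its RNA differed most. Rpl7a had 2.36% in stress library 3 and 12.5% in control library 2. The Rpl7a region (chr2:26768520-26769880, mm9) runs past the 3′ end of the gene and had a peak in 3 stress and 2 control libraries, as many as that of Rps25, though most of these peaks lie outside the body.

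Regions with a peak in all 3 libraries of one group and none of the other were few in member bodies. No member body held a stress-only region, compared with 2.44% of 23893 genes. Bodies of all genes are longer, with a median of 14272 bp compared with 2969 bp for members. The part of length in this was not tested. A single member, Rps24 (1.15% of members), held a control-only region, compared with 0.653% of genes. That region (chr14:25309276-25309918, mm9) is centred at -306 bp, upstream of the start, and 16 bp of it lie in the body. Only the peak of control library 2 reached the body, where it covered 0.293%. Rps24 RNA was at 27.5 FPKM in controls and 31.0 after stress, and its TOP tract is among those printed above. Outside the bodies but within 5 kb, stress-only regions lay 3062 bp from Rpl36 (chr17:56756731-56758891, mm9) and 2360 bp from Rps18 (chr17:34084508-34086584, mm9). The share of all genes with such a region within 5 kb is not given here. RNA of Rpl36 was at 26.5 and 26.7 FPKM, and that of Rps18 at 67.2 and 69.9.

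Members with a peak in any library stood higher in RNA than those without, with a median of 26.7 FPKM in controls and 28.9 after stress compared with 17.9 and 19.9. They also had longer bodies, with a median of 3784 bp compared with 2674 bp, and the part of length in this was not tested. Between the tables the 25 of them above the minimum had a median difference of 0.08, and the 56 without peaks one of 0.02. Within the members, peaks favoured exons little: 20.4% to 33.2% of the peak-covered length in stress libraries and 28.0% to 32.7% in control libraries lay on exons, which make up 26.6% of the body length.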

How the data were processed

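5hmC peaks of 6 libraries and RNA tables of 2 groups were used, grouped by the samples' titles and treatment labels. For each 5hmC library the authors deposited a peak list with a score per peak. Scores served to order the peaks of a list and for nothing else. Bowtie 0.12.9 and the mm9 build are named in the submitters' processing notes. The peak caller, its version and any input library were not given in the sources used here. For RNA the authors deposited FPKM per RefSeq transcript, in 1 table per group. TopHat 1.0.12, Cufflinks 2.1.1 and Cuffdiff 2.1.1 are named in the submitters' processing notes, and how the 3 RNA libraries of a group were combined is unknown here. Isoforms were summed per gene, a pseudocount of 1 FPKM was added, and genes averaging 1 FPKM or more (11071) were compared, with 1.25-fold and 1.5-fold as limits. Gene models were those of the RNA tables (mm9). Promoter sequences came from RefSeq (GRCm38.p6) by symbol.

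Libraries were compared by exact permutation tests, two-sided, over 20 assignments. The pools are separate mice, and same-numbered stress and control libraries are not paired by the labels. The rule for members uses symbols alone, but it and the lists were chosen with earlier results of these data known. Named genes were the 6 highest and 6 lowest by level and, within each length class, by difference, members listed at 0, members with peaks in at least 2 libraries or with group-only regions, stalk and paralog genes with their parents, and the 2 ends of each list. Genes in the snoRNA, sequence, isoform and near-region sentences were chosen after their values were seen. Alternatives were a pseudocount of 0.1, no filter, centring, the most abundant isoform, list trims, other peak thresholds and overlaps, wider windows and bodies, each library left out and a replicate block. Values of some single genes are not reported here. Steps were tested on simulated data. Python 3.11.15, numpy 2.4.6 and scipy 1.17.1 were used.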

Additional observations from a re-analysis of the deposited data

How the results depend on the processing

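No 5hmC comparison passed 0.05 under any alternative run, and none could with these group sizes. The difference in members with a peak (stress minus control, 1.33) became -1.0 with each list cut to equally many top peaks and -0.333 with the higher-scoring 50% of each list. Leaving out each library gave -0.167 (without control replicate 3) to 3.50. The difference in body coverage (0.334 percentage points) became -0.198 with equally many peaks, and -0.313 (without stress replicate 2) to 0.978 with a library left out. With bodies extended by 5 kb it rose to 1.33 percentage points. For start windows (0.445) equally many peaks gave -0.0937, leaving out a library 0.206 to 0.640, and windows of 2.5 kb 1.01. The ratio to all bodies (-0.384) became 0.340 with bodies extended by 5 kb, and -0.618 to -0.158 with a library left out. The cause was not tested.

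Members with a control-only region numbered 0 with equally many peaks and with the higher-scoring 50%, and 1 to 2 with a library left out, the second being Rpl13a without control replicate 3. Stress-only members numbered 2 with bodies extended by 5 kb and 0 to 1 with a library left out: Rpsa without stress replicate 2 and Rpl8 without control replicate 3. These settings also change the shares of all genes, which are not given for them. The 2.44% and 0.653% of the main setting do not apply to these counts. Same-numbered libraries did not deviate together (correlations 0.11, 0.06 and -0.07 over 13987 genes). With the replicate block, differences were as above (1.33, 0.334, -0.384 and 0.445), with exact sign-flip p of 0.750, 0.750, 0.5 and 0.25, the last being the smallest 3 pairs allow.

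RNA members at least 25% higher numbered 4 without a filter, where the added genes lie below 1 FPKM, and 1 after centring on all genes, 1 at 10 FPKM or more and 1 with interval midpoints, where Rps10 came to 0.31. Those at least 20% lower numbered 5 after centring, 1 without members that overlap another gene and 1 at 10 FPKM or more. Centring, midpoints and dropping the filter also move the shares of all genes, which are not given for these settings. These counts can therefore not be set beside the 7.71% and 3.52% of the main setting. The last 2 trims and the midpoints were chosen after seeing the data. No library could be left out of the RNA tables, and no member was under 300 nt, so that length class gave no value. Without replicates or depth, RNA differences of low genes are the least certain.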

Other observations

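The deposited RNA tables give an interval with each FPKM, and for the ribosomal protein genes the FPKM was mostly above it. Of 89 member transcripts at 1 FPKM or more in the control table, 62 lay above the upper bound of their interval and none below the lower bound, and 63 of 88 did after stress. That is 69.7% and 71.6%, compared with 18.7% and 20.9% of the transcripts of all genes above the minimum, and 64.6% and 65.4% for mitochondrial ribosomal proteins. The ratio of FPKM to the midpoint of its interval had a median of 1.27 in controls and 1.28 after stress for members and 1.01 in both for all genes. It was larger for short members, with a median of 1.72 and 1.75 under 500 nt compared with 1.24 in controls at 500 nt or more. The ratio was nearly the same in both tables. With midpoints in place of FPKM the members' median difference was 0.04, and Rpl27 differed by 0.73 and Rps14 by -0.44. Levels of members, most of all short ones, set beside those of other genes therefore depend on which of the deposited values is used. Among the longer members named for their difference between tables only Rpl27 moved by more than 0.1.

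Hosting a snoRNA went with a higher RNA level among the members and with no clear difference between tables. The 22 hosts had a median of 28.1 FPKM in controls and 31.9 after stress, and the other 65 had 17.5 and 18.0. The other 65 hold all 10 paralogs or lookalikes, with a median of 5.54 FPKM in controls, and all 6 members below 1 FPKM. The part of this makeup in the gap was not tested. The median difference was 0.04 for hosts and 0.02 for the 59 others above the minimum. Members with at least 1 pseudogene symbol that contains -ps, 64 of 87, had a median of 20.1 FPKM in controls and 21.5 after stress, compared with 25.3 and 21.8 for the other 23.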
